A study of Mus musculus with 8 samples.

Results

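The CIDE and perilipin genes encode proteins that coat, fuse and drain the lipid droplets of the liver, and 10 of them were followed here. They are Cidea, Cideb, Cidec, Plin2, Plin3, Plin4, Plin5, G0s2, Pnpla2 and Pnpla3, and they were chosen by gene symbol among the 46517 Ensembl genes of the count table. All 10 were in the table, each as 1 gene. RNA of the whole liver was sequenced in 4 MøFoxO1-KO males and their 4 WT littermates, also males, all on a C57BL/6 background, all homozygous for a loxP-flanked FoxO1 allele and all fed a NASH diet for 25 weeks from an age of 6 weeks. They were 31 weeks old and had been fasted for 16 hours when the liver was taken. MøFoxO1-KO mice also carried Cre under the myeloid Lyz2 promoter, so the allele was to be deleted in macrophages and other myeloid cells and not in hepatocytes.

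A lipid droplet is a core of triglyceride and cholesteryl ester inside a single layer of phospholipid, and proteins on its surface decide how the store is used. Perilipins cover the droplet and limit the access of lipases. CIDE proteins sit where droplets touch and move lipid from the smaller into the larger one, so that droplets grow. The first step of lipolysis is taken by ATGL, the product of Pnpla2, which the small protein encoded by G0s2 holds back. In a normal liver Plin2 and Cideb are the usual members, whereas Cidea and Cidec are best known from fat tissue and from steatotic liver.

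Total counts lay between 15253218 and 18025481 per mouse. Normalized counts are counts divided by the library size of each mouse after TMM scaling, brought to the average size over all 8 libraries. The genotypes were compared with the quasi-likelihood test of edgeR across 13278 genes that passed a filter on low counts, and a call needed a P below 0.05 after Benjamini-Hochberg adjustment over all of them (BH-adjusted P) together with a change of more than 1.5 on the log2 scale. Foxo1 itself had 403.2 ± 73.8 normalized counts in WT and 358.5 ± 73.3 in MøFoxO1-KO livers (SD, n = 4 each), which does not check the deletion, since most liver cells are not myeloid. All 7 hepatocyte markers in the table passed the filter, 6 with a log2 fold change above 0, while 51.7% of all genes tested were below 0. Of the 7, Apoa1 (1.07) and Serpina1a (0.90) were higher without overlap between groups (edgeR BH-adjusted P = 0.0765 and 0.102), against 5.0% of all genes tested. Summed normalized counts of the 7 markers were 1116340 to 1556634 in WT and 1294982 to 1938797 in MøFoxO1-KO mice. Of the 4 MøFoxO1-KO mice, replicate 28 stood apart from the others in several of the genes below, and values without it are given where it mattered.

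Of the 10 genes, 9 passed the filter and Pnpla3 did not. Cidec fell, and it was the only gene of the 9 that was called, while 0.136% of all genes tested were called lower. Among the 9 genes, 8 had a log2 fold change below 0, compared with 51.7% of all genes tested, and their median was -0.39 against -0.01 over all genes. At an unadjusted P under 0.05, 6 of the 9 genes were lower (Cidea, Cidec, Plin3, Plin4, Plin5 and Pnpla2), against 8.06% of the genes tested. All 4 MøFoxO1-KO mice lay below all 4 WT mice for Cidea, Cidec, Plin4 and Pnpla2, that is for 4 of 9 genes, against 4.71% of the genes tested. None of the 9 was higher in MøFoxO1-KO mice at an unadjusted P under 0.05 (edgeR), and edgeR, DESeq2 and limma-voom called none higher, while edgeR called 0.0527% of all genes higher. By the BH-adjusted P alone Cidec was again the 1 gene of 9, against 0.294% of all genes.

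**Figure D1:**
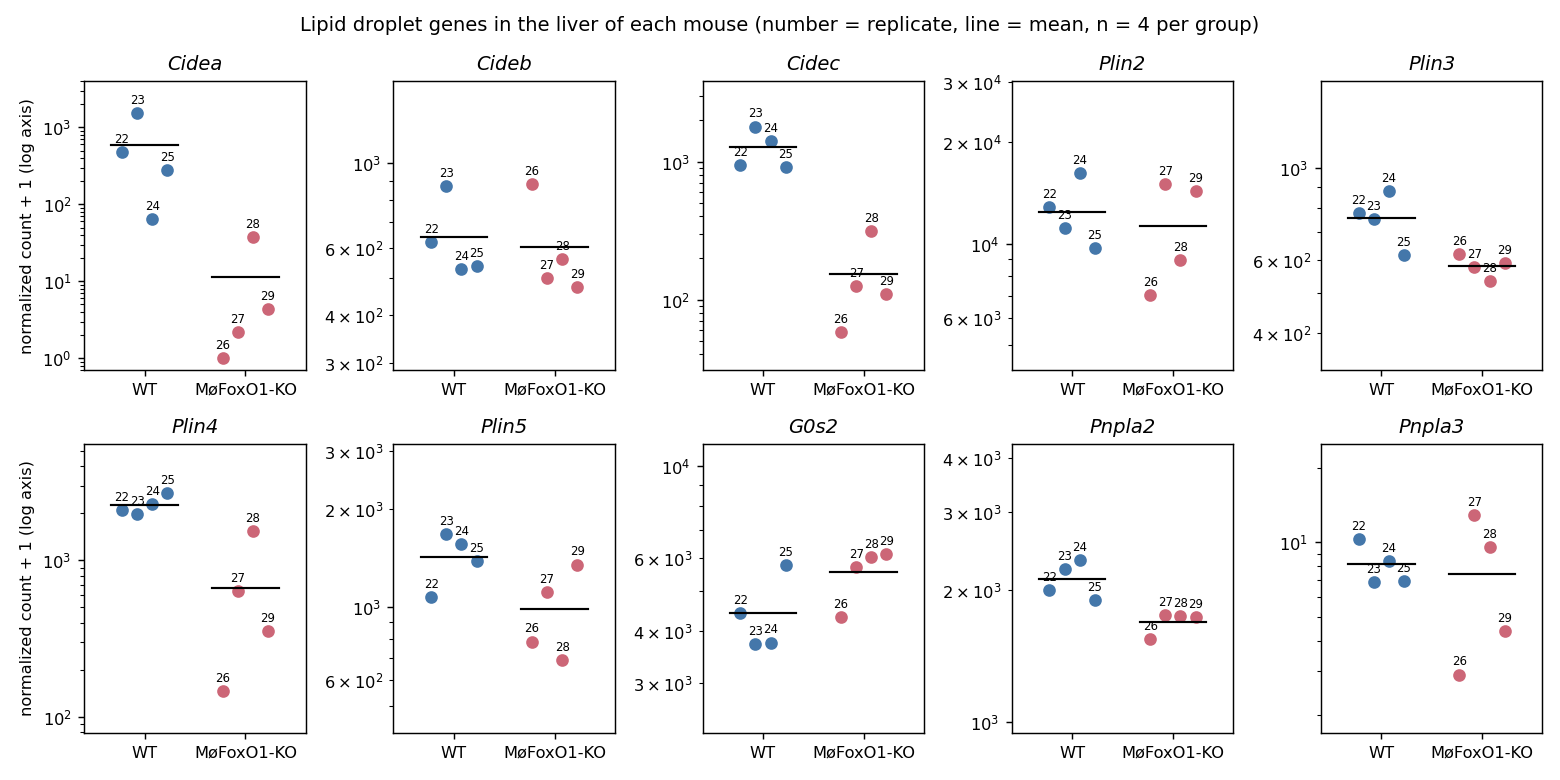
Normalized count plus 1 of each of the 10 genes (log axis) in each WT and MøFoxO1-KO mouse, with the replicate number beside each point and the group mean as a line. The groups do not overlap for Cidea, Cidec, Plin4 and Pnpla2, and MøFoxO1-KO replicate 28 is the highest of its group for Cidea, Cidec and Plin4.

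Among the CIDE genes, Cidec encodes the fusion protein also known as Fsp27. It lies on the minus strand of GRCm38 (chr6:113424634-113435760, ENSMUSG00000030278). WT replicates 22, 23, 24 and 25 had 949.7, 1792, 1418 and 914.0 normalized Cidec counts, and MøFoxO1-KO replicates 26, 27, 28 and 29 had 57.4, 125.1, 312.5 and 109.5. The highest MøFoxO1-KO value, in replicate 28, was still well under the lowest WT value. In RNA of whole liver, fewer cells of a type and less RNA per cell cannot be told apart. The decrease was 8.36-fold, a log2 fold change of -3.06 (SE 0.46, edgeR BH-adjusted P = 0.0337). The call was sensitive to the mice and the fit used, while the size of the difference stayed close. Without MøFoxO1-KO replicate 28 the log2 fold change was -3.70 (edgeR BH-adjusted P = 0.00455), and in each of the other 7 fits that left out 1 mouse Cidec missed the limit at log2 fold changes of -3.19 to -2.79 (edgeR BH-adjusted P between 0.0542 and 0.135). The robust fit of edgeR to all 8 mice missed it as well (log2 fold change -3.06, BH-adjusted P = 0.063).

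Cidea, a CIDE protein best known from brown fat, lies on the plus strand (chr18:67343564-67367794, ENSMUSG00000024526). Normalized Cidea counts were 475.8, 1541, 64.5 and 281.1 in WT replicates 22 to 25 and 0, 1.19, 36.9 and 3.35 in MøFoxO1-KO replicates 26 to 29. WT livers alone spanned a 23.9-fold range, and the lowest WT mouse, replicate 24, stood only a little above MøFoxO1-KO replicate 28. Cidea was not called, at a log2 fold change of -5.74 (SE 1.16, edgeR BH-adjusted P = 0.0851). Of 14 other fits, 3 called it: DESeq2 (BH-adjusted P = 0.00763), edgeR with no filter on low counts (BH-adjusted P = 0.00583), where 0.38 and 0.279% of all genes were called lower, and edgeR with MøFoxO1-KO replicate 28 left out (BH-adjusted P = 0.0385), where 0.341% were. Limma-voom (BH-adjusted P = 0.295), the robust fit of edgeR (BH-adjusted P = 0.141) and each of the other 7 fits with 1 mouse left out did not, and the log2 fold change was -4.64 without WT replicate 23. Over all 4 MøFoxO1-KO mice the fitted decrease was 53.3-fold. Apart from replicate 28, the MøFoxO1-KO mice had between 0 and 3 Cidea reads. With each of them set at 3 reads, the largest count among them, their level would be 181-fold lower than the WT mean. This figure was 83.8-fold with WT replicate 23 left out of the mean (tried after seeing the data), and 18-fold against the lowest WT mouse. Such figures describe the reads observed and set no lower limit on the true fold.

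Cideb, the CIDE protein of normal hepatocytes that also takes part in the lipidation of VLDL, behaved otherwise. It is on the minus strand (chr14:55754045-55758458, ENSMUSG00000022219). WT replicates 22 to 25 had 621.6, 869.4, 526.8 and 536.5 normalized counts, and MøFoxO1-KO replicates 26 to 29 had 881.9, 500.6, 560.6 and 473.6. The groups overlapped over most of their range, with the highest value of all in MøFoxO1-KO replicate 26. Cideb had a log2 fold change of -0.08 (SE 0.23, edgeR BH-adjusted P = 0.892), and it was 0.11 without WT replicate 23. Of the 1493 exon bases of Cideb, 1141 (76.4%) also lie in exons of Nop9 on the opposite strand, and the sources used here do not name the strand setting or how reads in shared bases were counted. Cideb values are therefore uncertain.

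Levels of different genes were compared as TMM-scaled CPM (counts brought to a common library size) per kilobase of exon, called per-length levels here. The summed per-length level of the 3 CIDE genes lay between 66.8 and 175 in WT mice and between 23.2 and 38.0 in MøFoxO1-KO mice, a separation that depended on the Cideb length used. Cidec made up 33.6 to 65.2% of this sum in WT mice, and 4.97 to 29.3% in MøFoxO1-KO mice. Cidea made up 4.72 to 46.1% in WT and 0 to 5.51% in MøFoxO1-KO mice. Cideb held 20.3 to 32.9% of the CIDE level in WT livers and 65.2 to 95.0% in MøFoxO1-KO livers, at a level that was itself close between groups (26.1 ± 6.53 and 24.7 ± 7.72 per-length units, SD, n = 4 each). If reads were counted only on the Cideb bases that Nop9 does not share, a length tried after seeing the data, the Cideb level would be 111 ± 27.7 in WT and 105 ± 32.7 in MøFoxO1-KO livers (SD, n = 4 each). The CIDE sum would then be 138 to 291 in WT and 86.0 to 155 in MøFoxO1-KO mice, and the groups would overlap, with MøFoxO1-KO replicate 26 above WT replicates 24 and 25. The share of Cideb would be 51.9 to 67.5% in WT and 88.8 to 98.8% in MøFoxO1-KO mice, still without overlap. With Cideb close between groups, its share has to rise where Cidea and Cidec are lower, so this is not a separate result.

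**Figure D2:**
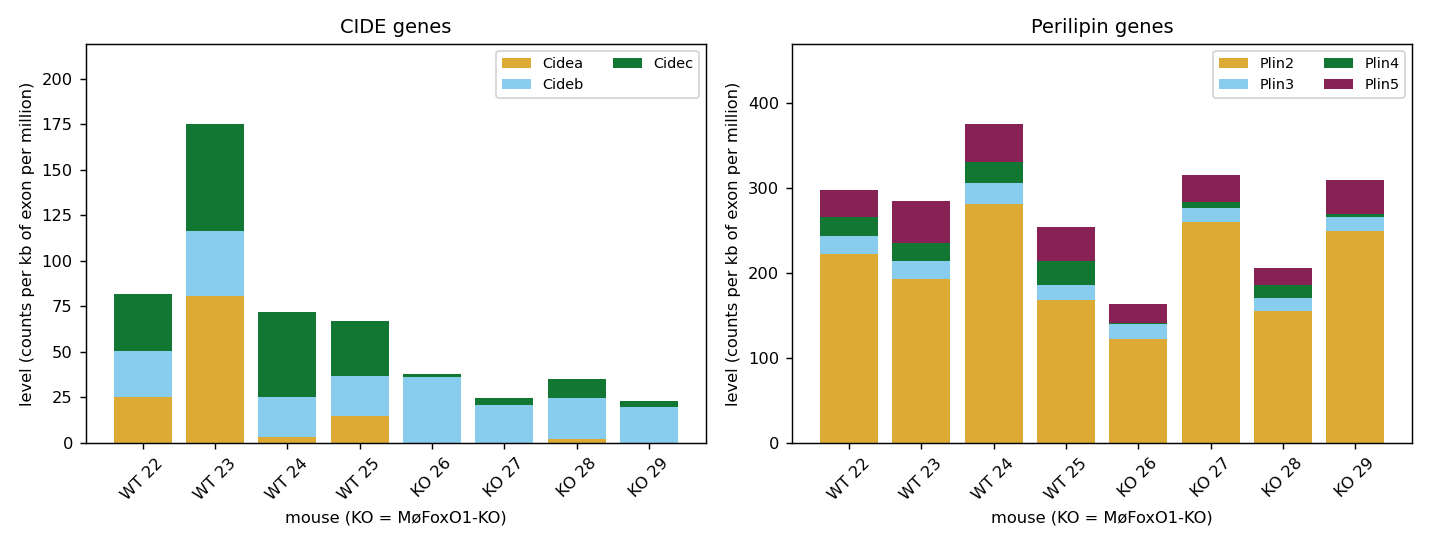
Stacked per-length levels (CPM per kilobase of exon) of the 3 CIDE genes and of the 4 perilipin genes in each mouse. The CIDE sum is at most 38.0 in MøFoxO1-KO mice and at least 66.8 in WT mice over the full Cideb length (155 and 138 over the bases not shared with Nop9), whereas Plin2 holds 66.2 to 82.4% of the perilipin sum in all 8 mice.

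Of the perilipins, Plin2 coats the droplets of most cells and is the main perilipin of the fatty liver. It is on the minus strand (chr4:86648386-86670060, ENSMUSG00000028494). Normalized Plin2 counts were 12788, 11121, 16134 and 9687 in WT replicates 22 to 25 and 7030, 14974, 8909 and 14298 in MøFoxO1-KO replicates 26 to 29. MøFoxO1-KO mice fell into a lower pair, replicates 26 and 28, and a pair in the upper part of the WT range, replicates 27 and 29. Its log2 fold change was -0.14 (SE 0.26, edgeR BH-adjusted P = 0.83), and it was 0.03 without MøFoxO1-KO replicate 26.

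Plin4 (chr17:56100591-56109803, minus strand, ENSMUSG00000002831) encodes a long perilipin that is abundant in white fat and binds newly formed droplets. WT replicates 22 to 25 had 2112, 1971, 2283 and 2682 normalized counts, a narrow range with a coefficient of variation of 13.6%. MøFoxO1-KO replicates 26 to 29 had 144.4, 638.8, 1535 and 351.9, a coefficient of variation of 91.8%. All 4 lay below every WT mouse, from 6.39% of the WT mean in replicate 26 to 67.9% in replicate 28. Plin4 was called neither by edgeR, at a log2 fold change of -1.76 (SE 0.56, BH-adjusted P = 0.182), nor by DESeq2 (BH-adjusted P = 0.118). Without MøFoxO1-KO replicate 28, the highest of its group, Plin4 was called at a log2 fold change of -2.57 (edgeR BH-adjusted P = 0.0352). In that fit 0.341% of all genes were called lower. No other fit that left out 1 mouse called Plin4 (edgeR BH-adjusted P between 0.185 and 0.418).

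Plin5, a perilipin of oxidative tissues that links droplets to mitochondria, is the neighbor of Plin4 on the same strand (chr17:56111601-56117596, ENSMUSG00000011305), with 1797 bases between them. Normalized Plin5 counts were 1075, 1674, 1558 and 1383 in WT replicates 22 to 25 and 785.3, 1111, 691.3 and 1349 in MøFoxO1-KO replicates 26 to 29. The groups overlapped, and MøFoxO1-KO replicate 28, the highest of its group for Plin4, was the lowest for Plin5. For Plin5 the log2 fold change was -0.53 (SE 0.22, edgeR BH-adjusted P = 0.266).

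Plin3 (chr17:56278962-56290511, minus strand, ENSMUSG00000024197) encodes a perilipin that moves from the cytosol onto small droplets. WT replicates 22 to 25 had 776.8, 752.6, 878.6 and 613.9 normalized counts and MøFoxO1-KO replicates 26 to 29 had 617.9, 574.4, 531.3 and 587.6. WT replicate 25 was the only WT mouse under the highest MøFoxO1-KO mouse. Plin3 had a log2 fold change of -0.39 (SE 0.12, edgeR BH-adjusted P = 0.185). It was the steadiest perilipin in MøFoxO1-KO livers, with a coefficient of variation of 6.22%.

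The summed per-length level of the 4 perilipins was 255 to 375 in WT and 164 to 316 in MøFoxO1-KO mice, and these ranges overlapped. Plin2 took 66.2 to 74.8% of it in WT and 74.4 to 82.4% in MøFoxO1-KO mice. The share of Plin4 was 6.43 to 11.1% in WT mice. In MøFoxO1-KO mice it was 0.93, 2.14 and 1.21% in replicates 26, 27 and 29, and 7.86% in replicate 28, which is within the WT range.

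Among the genes that control lipolysis, Pnpla2 encodes ATGL, the lipase that opens the breakdown of stored triglyceride. It is on the plus strand (chr7:141455198-141460743, ENSMUSG00000025509). Normalized Pnpla2 counts were 1998, 2224, 2340 and 1895 in WT replicates 22 to 25 and 1539, 1746, 1743 and 1735 in MøFoxO1-KO replicates 26 to 29. The difference was small and the same in direction for every pair of mice, since the highest MøFoxO1-KO value was under the lowest WT value. Pnpla2 missed the limits at a log2 fold change of -0.32 (SE 0.11, edgeR BH-adjusted P = 0.212). The value stayed between -0.37 and -0.27 with any 1 mouse left out.

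G0s2 (chr1:193272161-193273217, minus strand, ENSMUSG00000009633) encodes the inhibitor of ATGL, and it was the only one of the 9 tested genes with a positive log2 fold change. WT replicates 22 to 25 had 4421, 3730, 3753 and 5773 normalized counts and MøFoxO1-KO replicates 26 to 29 had 4325, 5703, 6022 and 6119. WT replicate 25 lay among the higher MøFoxO1-KO mice and MøFoxO1-KO replicate 26 among the lower WT mice. G0s2 differed by a log2 fold change of 0.33 (SE 0.18, edgeR BH-adjusted P = 0.386).

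Pnpla3 (chr15:84167816-84189512, plus strand, ENSMUSG00000041653), a droplet-bound relative of ATGL, was close to the limit of detection. It had 10, 6, 8 and 6 reads in WT replicates 22 to 25 and 2, 10, 9 and 3 reads in MøFoxO1-KO replicates 26 to 29. The groups overlapped (exact two-sided permutation test of normalized counts, P = 0.8), and at this depth a difference was not detectable. Fitted with no filter, Pnpla3 had a log2 fold change of -0.18 (SE 0.64, edgeR BH-adjusted P = 0.924).

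**Figure D3:**
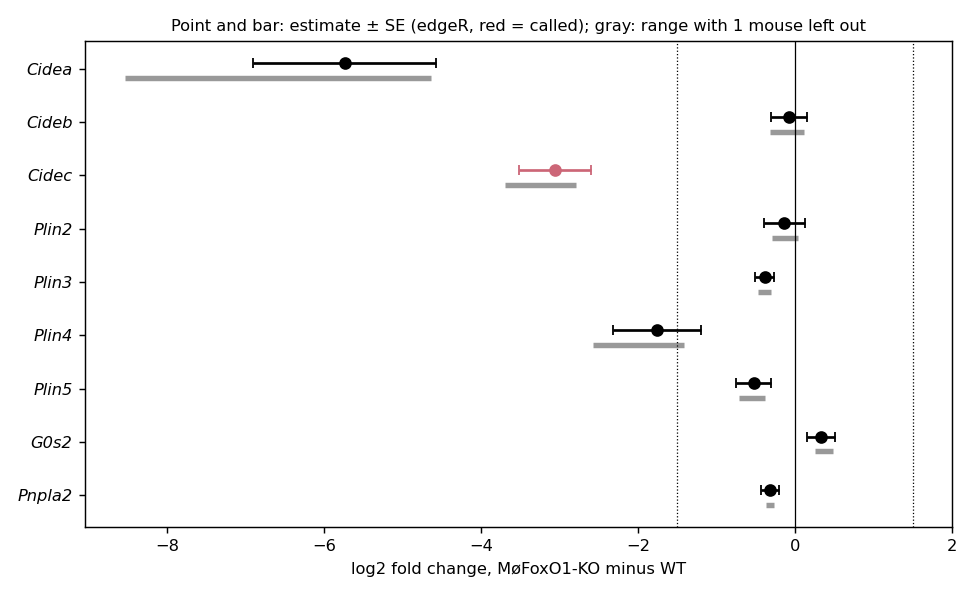
Log2 fold change (MøFoxO1-KO minus WT, edgeR) of the 9 tested genes, with the standard error as a black or red bar and the range of the 8 fits with 1 mouse left out in gray, and dotted lines at the limit of 1.5 in both directions. Cidec, in red, is the only gene called, and the lower end of the Cidea range is a fitted value against mice with at most 3 reads.

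By per-length level in WT livers, G0s2 was highest with 310 ± 67.2 and Plin2 followed with 216 ± 48.2 (SD, n = 4 each). Pnpla2 (42.8 ± 4.12), Cidec (41.7 ± 13.7), Plin5 (41.6 ± 7.63), Cidea (31.0 ± 34.4), Cideb (26.1 ± 6.53), Plin4 (23.9 ± 3.25) and Plin3 (21.4 ± 3.08) came next, all SD with n = 4, and neighbors in this order did not differ beyond their spread. On the bases not shared with Nop9, Cideb would come just after Plin2 in both groups, at 111 and 105. Pnpla3 was far below them at 0.094 ± 0.0213 (SD, n = 4). By their means in MøFoxO1-KO livers, Pnpla2 (34.2 ± 2.05), Plin5 (28.8 ± 8.86), Cideb (24.7 ± 7.72) and Plin3 (16.3 ± 1.02) stood above Plin4 (7.06 ± 6.48), Cidec (4.97 ± 3.67) and Cidea (0.544 ± 0.932), again SD with n = 4, although Plin4 in replicate 28 (16.2) reached the range of Plin3 (15.0 to 17.5). G0s2 and Plin2 remained at the top of the order, with 389 ± 58.2 and 197 ± 68.4 (SD, n = 4 each).

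The promoters of Cidec and Plin4 are shown because these genes had the largest differences after Cidea. They are the 250 bases before a start site in RefSeq on GRCm38.p6, read on the minus strand of chr6:113435761-113436010 for Cidec and of chr17:56109783-56110032 for Plin4, and capitals mark the letters TATAA.
Cidec: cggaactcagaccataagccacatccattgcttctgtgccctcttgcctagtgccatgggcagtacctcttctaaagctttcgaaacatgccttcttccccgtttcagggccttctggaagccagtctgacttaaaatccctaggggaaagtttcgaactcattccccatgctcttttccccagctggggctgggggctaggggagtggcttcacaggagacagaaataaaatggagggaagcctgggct
Plin4: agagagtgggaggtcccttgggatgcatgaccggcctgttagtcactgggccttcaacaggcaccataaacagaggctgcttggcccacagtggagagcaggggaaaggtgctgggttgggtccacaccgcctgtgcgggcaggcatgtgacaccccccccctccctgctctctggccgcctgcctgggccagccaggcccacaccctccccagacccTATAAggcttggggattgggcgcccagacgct

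TATAA begins 32 bases before the start of Plin4 and 27 bases before a start of its neighbor Plin5, and this Cidec window does not hold it. RefSeq also lists another start for Cidec and for Plin5. TATAA was in neither of their windows (chr6:113434765-113435014 and chr17:56117299-56117548). On either strand it was found in 22.8% of the 32851 promoter windows of this length. A direct repeat of AGGNCA with 1 base between the copies, a form of the element to which PPAR and RXR bind as a pair, was in none of the windows of the 9 genes that had one (all but Cidea) and in 0.338% of all windows. Neither was the FoxO core GTAAACA, which 3.17% of all windows hold. It was looked for only as these exact letters, and looser forms of it were not searched. These letters were looked for only in the 250 bases before each start, so nothing follows for sites elsewhere.

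To place these genes in their pathway, 31 other droplet genes were taken from a list of proteins that build droplets, make their triglyceride or break it down. The table held all 31, and 29 passed the filter. Their median log2 fold change was -0.10, with 13 values above 0 and 16 below. None was called by edgeR, where 0.188% of all genes tested were called, and DESeq2 and limma-voom called none. At an unadjusted P under 0.05 (edgeR), 3 were higher and 4 were lower, against 8.65 and 8.06% of all genes tested. Those 7 are named here with their log2 fold changes.

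In this list, the largest positive value belonged to Pnpla7, a lysophospholipase at droplets and the endoplasmic reticulum, with 0.61 and a standard error of 0.18. Its normalized counts were 1381 to 2167 in WT and 2032 to 2871 in MøFoxO1-KO mice, so the groups overlapped. Aadac, a hepatocyte esterase, had 0.44 ± 0.15 and Aup1, a droplet protein that also serves protein degradation, had 0.36 ± 0.13 (log2 fold change ± SE). Aup1 was the only gene of the 29 whose groups did not overlap, against 5.0% of all genes tested higher without overlap and 4.71% lower. On the negative side, Lpin1, a phosphatidate phosphatase that makes diacylglycerol, had -0.59 ± 0.26, and Mgll, the lipase of the last step of lipolysis, had -0.46 ± 0.19 (log2 fold change ± SE). Fitm2, which helps droplets to bud, had -0.44 ± 0.15, and Ddhd2, a triglyceride and phospholipid lipase, had -0.39 ± 0.16 (log2 fold change ± SE). For these 7 genes the BH-adjusted P (edgeR) ran from 0.157 to 0.296. By contrast, the ATGL activator Abhd5 had -0.19 ± 0.14, and the triglyceride synthases Dgat1 and Dgat2 had 0.12 ± 0.12 and 0.03 ± 0.24 (log2 fold change ± SE, chosen after their values were seen).

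Of 16 regulators of droplet genes, all passed the filter, with 5 log2 fold changes above 0, 11 below and a median of -0.13. None was called by edgeR, DESeq2 or limma-voom with all 8 mice, and 2 were higher and 2 lower at an unadjusted P under 0.05 (edgeR), against 8.65 and 8.06% of all genes tested. The largest difference was in Pparg (chr6:115360951-115490399, plus strand, ENSMUSG00000000440), a nuclear receptor that drives fat storage in adipocytes and is raised in steatotic liver. WT replicates 22 to 25 had 478.6, 465.1, 530.5 and 288.1 normalized Pparg counts and MøFoxO1-KO replicates 26 to 29 had 8.61, 81.0, 256.6 and 51.4. No MøFoxO1-KO mouse reached the lowest WT mouse, and replicate 28 came closest. Pparg was the 1 regulator of 16 that was lower without overlap, against 4.71% of all genes tested. The log2 fold change was -2.14 (SE 0.67, edgeR BH-adjusted P = 0.181). Without MøFoxO1-KO replicate 28, the highest of its group, Pparg was called at -3.24 (edgeR BH-adjusted P = 0.0376). In that fit 0.341% of all genes were called lower. No other fit that left out 1 mouse called Pparg (edgeR BH-adjusted P between 0.172 and 0.418).

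The 4 MøFoxO1-KO mice had the same order for Pparg, Cidec and Plin4, from replicate 26 over 29 and 27 to 28. How many of all genes tested share this order was not counted. For Cidea, replicates 26 and 28 were again the lowest and the highest, and replicates 27 and 29 had 1 and 3 reads. In replicate 28 the level was 58.3% of the WT mean for Pparg, 67.9% for Plin4, 24.6% for Cidec and 6.25% for Cidea. In the other 3 mice it reached at most 18.4% for Pparg, 28.2% for Plin4, 9.87% for Cidec and 0.568% for Cidea. WT mice did not share such an order, since the highest was replicate 24 for Pparg, 23 for Cidec and Cidea and 25 for Plin4.

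**Figure D4:**
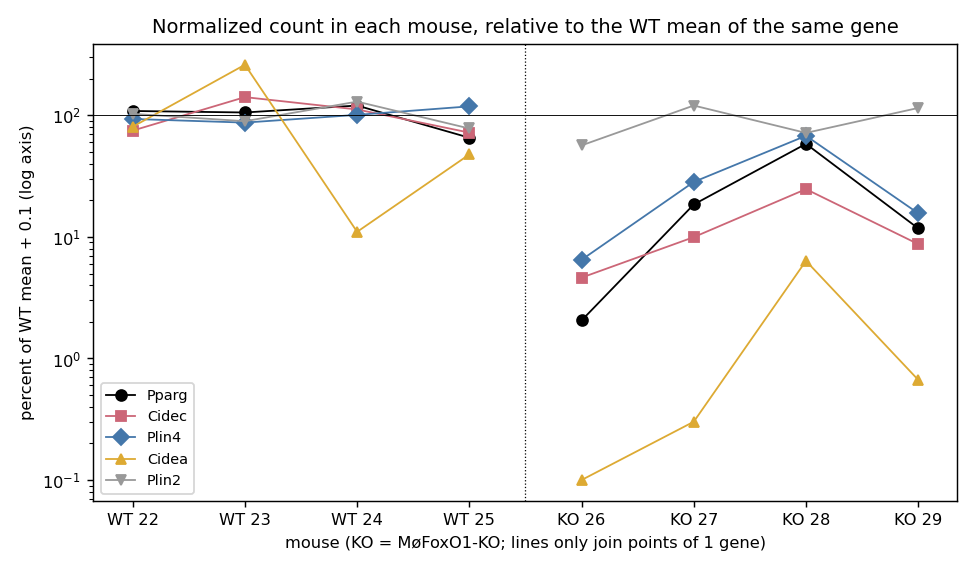
Normalized count of Pparg, Cidec, Plin4, Cidea and Plin2 in each mouse as a percentage of the WT mean of the same gene, plus 0.1, on a log axis. MøFoxO1-KO replicate 28 lies above the other MøFoxO1-KO mice for Pparg, Cidec, Plin4 and Cidea and below replicates 27 and 29 for Plin2.

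The other regulators differed less. Ppargc1a, a coactivator of oxidative metabolism, had a log2 fold change of -0.53 ± 0.21. The cholesterol-sensing receptor gene Nr1h3 and Creb3l3, which encodes a liver transcription factor of the endoplasmic reticulum, each had 0.31, with standard errors of 0.11 and 0.12. For both, that is for 2 of the 16 regulators, every MøFoxO1-KO mouse was above every WT mouse, against 5.0% of all genes tested. Their normalized counts were 1423 to 1571 in WT and 1695 to 2087 in MøFoxO1-KO livers for Nr1h3, and 4984 to 5718 and 6222 to 7481 for Creb3l3. For these 3 genes the BH-adjusted P (edgeR) ran from 0.212 to 0.243. Ppara, the receptor that switches on fatty acid oxidation in the fasted liver, had -0.26 ± 0.19, and Srebf1, the main driver of fatty acid synthesis, had 0.14 ± 0.34 (log2 fold change ± SE, chosen after their values were seen).

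**Figure D5:**
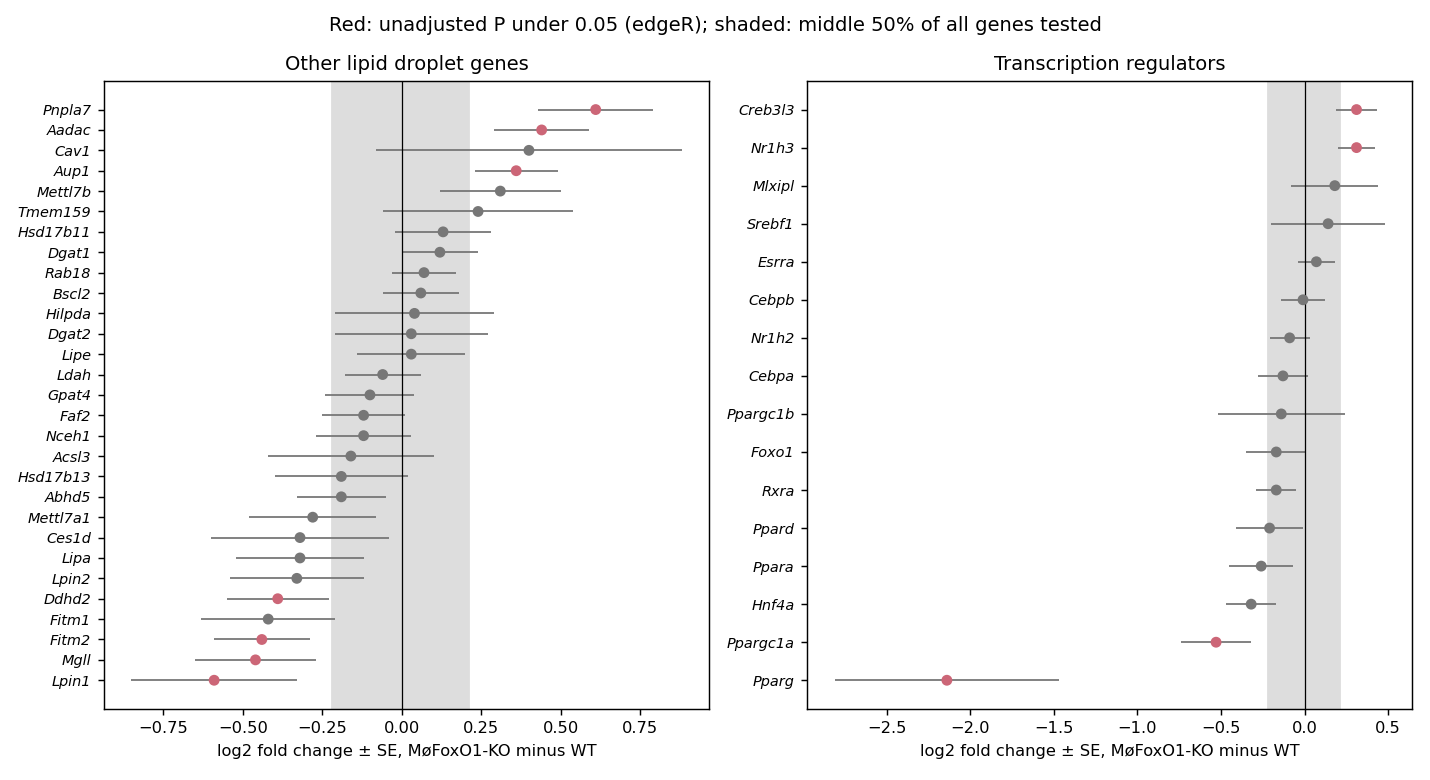
Log2 fold change with its standard error (MøFoxO1-KO minus WT, edgeR) of the 29 other droplet genes and 16 regulators tested, in red where the unadjusted P was under 0.05, over a gray band that marks the middle 50% of all genes tested (-0.22 to 0.21). Pparg, at -2.14, lies far from the rest of both lists.

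Genes with the most similar profiles were sought for Cidea, Cidec and Plin4, by the root mean square difference over the 8 mice of log2 CPM after the mean of each gene was subtracted. Among the 5 nearest genes of Plin4 were Krt23 (0.56), a keratin, Pparg itself (0.57) and Neurl1b (0.61). For Cidec the nearest were Gm11695 (0.39) and Gm16348 (0.45), both of low count, and then Cyp39a1 (0.59), an oxysterol hydroxylase, Abcc4 (0.61), an efflux transporter, and Osbpl3 (0.61), a lipid transfer protein. For Cidea no gene came as close, and its 5 nearest included Hao2 (1.29), Gm5345 (1.6), Olig1 (1.66) and Cyp2b13 (1.71).

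Cidea, Cidec and Plin4 are also expressed in fat cells. Of 9 adipocyte markers, Lep had no reads in any liver, Adipoq had at most 3, and Retn and Plin1 at most 2. Fabp4 (143 to 316 reads) and Lipe (166 to 321 reads), which other cells also express, were present in every liver with overlapping groups, and Adrb3 had 55 to 391 reads. Adig had 30 and 55 reads in WT replicates 22 and 23, the WT mice with the highest Cidea, and at most 2 in the other 6 mice. The summed normalized counts of the list ran from 872.2 to 2961 in WT and from 632.3 to 5328 in MøFoxO1-KO mice, most of it from Cfd in some mice. Cfd had 2505, 2084, 152 and 385 reads in WT replicates 22 to 25. It had 4756 reads in MøFoxO1-KO replicate 28 and between 0 and 10 in the other 3.

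Macrophages hold droplets as well. All 10 macrophage markers passed the filter, 9 with a positive log2 fold change and 5 of them at an unadjusted P under 0.05, with a median of 0.68. Of all genes tested, 8.65% were higher at that P and 51.7% had a log2 fold change below 0. The 1 marker below 0 was Lyz2 (-0.77). None of the 10 was called by edgeR, and none was without overlap between groups, against 5.0% of all genes tested higher without overlap. Summed normalized counts of the 10 were 3884 to 5940 in WT mice and 3906 to 16180 in MøFoxO1-KO mice, with the lowest of these in replicate 28. Among 6 markers of lipid-associated macrophages, Gpnmb was called lower (edgeR BH-adjusted P = 0.0382), against 0.136% of all genes tested. Trem2 had a log2 fold change of -3.88 (edgeR BH-adjusted P = 0.0983). Gpnmb and Trem2 were lower without overlap, against 4.71% of all genes tested, and Spp1 had a log2 fold change of -0.23. The other 3 lay above 0, with 1.91 for Fabp5 (edgeR BH-adjusted P = 0.131), 0.41 for Cd9 and 0.19 for Lpl, so that the median was -0.02, and the summed counts overlapped, at 2223 to 3688 in WT and 2296 to 3437 in MøFoxO1-KO mice. Stellate cell markers summed to 4358 to 7598 normalized counts in WT and 5338 to 8522 in MøFoxO1-KO mice, and their log2 fold changes were 4 above and 4 below 0 with a median of 0.02, from -1.28 for Col1a1 (edgeR BH-adjusted P = 0.193) to 0.19 for Dcn. Cholangiocyte markers summed to 1307 to 1724 and 976.6 to 1492, and endothelial markers to 1530 to 3346 and 2687 to 3979, in WT and MøFoxO1-KO mice. Most of the cholangiocyte sum was Spp1, which is also in the lipid-associated list, with 1127 to 1555 in WT and 826.4 to 1313 in MøFoxO1-KO mice. All 5 cholangiocyte markers had a log2 fold change below 0 (median -0.23). All 6 endothelial markers lay above 0 (median 0.3). In both lists, no marker had an unadjusted P under 0.05 (edgeR). The part of these cell types in the values of the droplet genes was not tested.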

How the data were processed

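The authors deposited raw read counts per gene for 8 livers, made from polyadenylated RNA. Per the labels, reads were processed with STAR and featureCounts on mm10, and their versions, the strand setting and the handling of shared reads are not given in the sources used here. The deposited table also holds the summed exon length of each gene. Symbols came from GENCODE M21 for 46005 genes, and 512 had none. Every column of counts belongs to a labelled mouse.

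Genes were filtered with filterByExpr (minimum count 10, minimum total 15), scaled by TMM and tested with edgeR 4.0.16 in R 4.3.3 over all 8 mice without covariates, with Benjamini-Hochberg adjustment over all genes tested. The standard error is the absolute log2 fold change divided by the square root of F. Per-length levels are TMM-scaled CPM (counts scaled to a common library size) per kilobase of exon, and log2 CPM used a prior count of 2. Exact permutation tests used scipy 1.17.1. Alternatives were DESeq2 1.42.0, limma-voom (limma 3.58.1), robust dispersion, other scalings and filters, no limit on the fold change, and each mouse left out in turn. On simulated counts with 200 genes changed by 2 on the log2 scale, edgeR recovered 173 with 4 false calls, DESeq2 180 with 9 and limma-voom 169 with 3. Both groups were drawn with the same dispersion for each gene and with no mouse set apart. These rates therefore need not hold for genes with unequal spread, such as Plin4. Total counts of 15253218 to 18025481 per mouse leave little precision for genes with few reads. The edgeR P-values set the difference between groups against the spread between these mice, estimated with help from all genes tested.

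Besides the 10 genes and Foxo1, the text names genes of 2 lists (other droplet genes, regulators) at an unadjusted P under 0.05, the 5 nearest profiles of the 3 genes with the largest change, and genes of marker lists. Of the nearest profiles, 3 genes are not reported here. The genes, lists and rules were chosen with earlier results of these data known. The hepatocyte list had 8 symbols, and 7 matched. Promoter windows came from RefSeq, and no protein sequence was used here.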

Additional observations from a re-analysis of the deposited data

Results flagged for a closer look

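In each group of 4 mice, the highest or lowest normalized count was compared with the rest for 33 of the genes chosen by rule, which makes 66 groups. A value was set apart where its gap to the nearest other mouse, divided by the range of the group, was above the 95% critical value of Dixon, which chance alone gives in about 1 of 20 groups. This held for 9 values, of which 5 were in MøFoxO1-KO replicate 28.

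Of the lipid droplet genes, Cidea had 36.9 normalized counts in MøFoxO1-KO replicate 28 and at most 3.35 in the other MøFoxO1-KO mice. Pnpla2 had 1539 in MøFoxO1-KO replicate 26 and 1735 to 1746 in the others.

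Among the genes with profiles near those of Cidea or Cidec, MøFoxO1-KO replicate 28 had 24.6 normalized counts of Gm5345 and 4.74 of Gm16348, where the other 3 MøFoxO1-KO mice had 0. It had 163.8 of Olig1 against at most 21.45, and 469.7 of Osbpl3 against at most 115.1. These genes were picked for profiles like those of Cidea and Cidec, in which the same mouse is highest, so they add no separate evidence.

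WT replicate 23 had 1621 normalized counts of Fitm2, above 1116 to 1198 in the other WT mice, and 1577 of Aup1, below 2071 to 2157. Creb3l3 had 7481 in MøFoxO1-KO replicate 27 and 6222 to 6366 in the other MøFoxO1-KO mice.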

How the results depend on the processing

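Of the 9 lipid droplet genes tested, 1 was called with all 8 mice. DESeq2 called 2 (Cidec and Cidea), edgeR without a filter on low counts called the same 2, and the robust fit of edgeR called 0, with 6 genes at an unadjusted P under 0.05. With 1 mouse left out, between 0 and 3 were called, the 3 (Cidec, Cidea and Plin4) without MøFoxO1-KO replicate 28. Over all genes, edgeR called 25, against 174 with DESeq2, 120 without a filter, 13 with limma-voom, 39 without the limit on the fold change and 3 to 82 with 1 mouse left out. Of the regulators, between 0 and 1 were called with 1 mouse left out, and the 1 was Pparg, without MøFoxO1-KO replicate 28. The other droplet genes had no call under any alternative. Direction turned only in Cideb and Plin2, which had no call. With 1 mouse left out, the log2 fold change of Cideb ran from -0.32 (MøFoxO1-KO replicate 26 left out) to 0.11 (WT replicate 23), and it was also above 0 when MøFoxO1-KO replicate 27 (0.01) or 29 (0.02) was omitted. That of Plin2 ran from -0.29 to 0.03 and was above 0 when WT replicate 24 (0.01) or MøFoxO1-KO replicate 26 (0.03) was omitted. The other 7 genes kept their direction under all alternatives in which they were fitted. Cidea did not pass the filter that required 10 counts in every mouse. The cause of these changes was not tested. No paired analysis was possible because the groups share no replicate numbers.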

Other observations

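Adrb3, which encodes a receptor that starts lipolysis in fat cells, had 54.0 to 229.3 normalized counts in WT and 252.5 to 414.7 in MøFoxO1-KO livers. It was the 1 of 4 tested adipocyte markers that was higher without overlap, against 5.0% of all genes tested. It was not called, at a log2 fold change of 1.52 (SE 0.37, edgeR BH-adjusted P = 0.12), and the gene was named after its values were seen. Marco, a scavenger receptor of Kupffer cells, had 4.91 to 81.0 normalized counts in WT mice. In MøFoxO1-KO mice it had 735.6, 2707 and 2115 in replicates 26, 27 and 29 and 66.3 in replicate 28, which is within the WT range, as for the share of Plin4 among the perilipins. How many of all genes tested have replicate 28 within the WT range in this way was not counted. Marco was not called, at a log2 fold change of 5.18 (SE 1.06, edgeR BH-adjusted P = 0.087), the largest of the 10 macrophage markers. It was also named after its values were seen.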
